A study of Mus musculus with 24 samples.

Results

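A set of 9 genes, grouped under the heading of macrophages loaded with lipid or driven to alternative activation (Arg1, Gpnmb, Trem2, Lgals3, Cd63, Lipa, Lgmn, Saa3 and Tm4sf19), was followed over 20 whole-lung expression arrays of mice. They are 9 of the 19505 genes measured, each read by 1 probe set that the platform annotation assigns to that symbol alone. They were chosen because they were high on a single array, Marfan sildenafil 9. Their levels on that array are therefore a description, and the group comparisons rest on the other 19 arrays. The rule set no lower limit, so no gene stands just inside or outside it.

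Mice modelling Marfan syndrome, in which connective tissue is weakened by an inherited defect, were set beside wild-type mice, with or without sildenafil, an inhibitor of phosphodiesterase 5. Marfan mice given sildenafil gave 5 arrays (8, 9, 10, 11 and 12), and Marfan mice given vehicle gave 5 (20 to 24). Wild-type mice given sildenafil gave 4 (1, 4, 5 and 6), and wild-type mice given vehicle gave 6 (13 to 18). All were killed at 6 months of age, and the drug was given in the drinking water starting at 6 weeks. The treatment field of the labels carries the same sildenafil text for every sample, so the treatment was read from the sample titles. The labels name neither the allele of the Marfan mice nor sex, litter or scan date. Array numbers follow the groups, so that any batch in that order cannot be told apart from group. Nothing in the labels says that each array was a separate animal, although the design text planned 6 animals per group. The spread that p-values rest on is therefore the one among these samples, which may be technical. Alveolar type 2 cell markers averaged 11.53 log2 units on Marfan sildenafil 9 and 11.48 ± 0.09 (SD, n = 19) on the other arrays, so lung epithelium was present on all. Array 9 stood apart from the rest across the genome, with 710 genes over 1 log2 unit higher and 532 over 1 unit lower.

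Macrophages that meet much lipid or dying material take it into lysosomes, break it down and change their surface and secreted proteins. Trem2 is a receptor for lipids and signals through the adaptor Tyrobp. Lipa is the acid lipase that frees cholesterol and fatty acids in the lysosome, Lgmn is a lysosomal cysteine protease, Cd63 is a tetraspanin of late endosomes, and Gpnmb is a glycoprotein of lysosomes under lipid load. Lgals3 is a galectin that binds sugar chains. Arg1 converts arginine to ornithine and is the classic mouse marker of alternative activation, the state induced by interleukins 4 and 13. Saa3 is an acute-phase serum amyloid A made outside the liver, and Tm4sf19 is a membrane protein related to the tetraspanins. In the lung, the alveolar macrophage handles surfactant lipid throughout life.

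RefSeq start regions (build GRCm38.p6) were found for 8 of the 9 genes, and Arg1 was not matched. Of these, 4 are shown, from 250 bases before the annotated start to 30 after it: Gpnmb, Trem2 and Saa3 as genes that were far higher on array 9, and a start of Lgmn as the smallest difference. Capitals mark matches, on either strand, to 5 patterns: the E-box CACGTG, the AP-1 pattern TGANTCA, the C/EBP pattern TTNNGNAA, the PU.1 pattern GAGGAA and the 10-base NF-kappaB consensus. The regions are Gpnmb at chr6:49036268-49036547 (plus strand), Trem2 at chr17:48346151-48346430 (plus strand), Saa3 at chr7:46715647-46715926 (minus strand) and Lgmn at chr12:102439063-102439342 (minus strand).
Gpnmb: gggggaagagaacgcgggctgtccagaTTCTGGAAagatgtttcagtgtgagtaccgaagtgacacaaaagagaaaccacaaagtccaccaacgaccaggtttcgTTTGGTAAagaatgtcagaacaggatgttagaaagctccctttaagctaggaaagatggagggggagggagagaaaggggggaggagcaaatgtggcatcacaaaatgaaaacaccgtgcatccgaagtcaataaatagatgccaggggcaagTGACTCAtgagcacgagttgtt
Trem2: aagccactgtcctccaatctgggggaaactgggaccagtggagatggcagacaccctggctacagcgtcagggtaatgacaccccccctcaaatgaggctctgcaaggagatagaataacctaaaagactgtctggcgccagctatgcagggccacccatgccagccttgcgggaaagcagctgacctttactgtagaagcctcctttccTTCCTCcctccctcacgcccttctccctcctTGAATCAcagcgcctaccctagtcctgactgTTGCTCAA
Saa3: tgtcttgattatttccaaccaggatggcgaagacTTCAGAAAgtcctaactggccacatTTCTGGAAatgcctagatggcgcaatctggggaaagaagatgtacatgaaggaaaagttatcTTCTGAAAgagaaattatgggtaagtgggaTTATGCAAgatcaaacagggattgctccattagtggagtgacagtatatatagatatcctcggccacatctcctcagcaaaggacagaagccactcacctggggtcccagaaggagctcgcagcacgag
Lgmn: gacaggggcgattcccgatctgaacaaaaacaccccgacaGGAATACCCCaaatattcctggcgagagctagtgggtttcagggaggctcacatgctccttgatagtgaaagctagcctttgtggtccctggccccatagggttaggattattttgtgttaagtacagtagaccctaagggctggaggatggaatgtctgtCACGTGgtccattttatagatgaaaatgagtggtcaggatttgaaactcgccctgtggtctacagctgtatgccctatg

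In the full window of 300 bases, which also takes in 50 bases after the start, the C/EBP pattern stood in 5 of the 8 genes and in 40.7% of all 32851 start regions of that length. The Saa3 region held 4 such matches. The AP-1 pattern stood in 2 of 8 (Gpnmb and Trem2) and in 7.81% of all regions, and the PU.1 pattern in 3 of 8 and 28.3%. In Cd63 a PU.1 match overlaps the C/EBP match. The NF-kappaB consensus stood in 2 of 8 (Lgals3 and Lgmn) and 8.46%, and the E-box in 1 of 8 (Lgmn) and 7.15%. Both Lgmn matches lie in the start shown, not in its other listed start. A gene was counted if any of its starts held the pattern, whereas the percentages are per start region. A match is a stretch of letters and shows no binding.

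On Marfan sildenafil 9, Arg1 was at 10.44 log2 units, against a median of 4.26 on the other 19 arrays, a difference of 6.18 that was the largest of all 19505 genes and equals 72.3-fold on the scale of the array. The other 4 Marfan sildenafil arrays read 3.69 (array 8), 5.94 (10), 4.57 (11) and 4.14 (12). Marfan vehicle lungs read 5.28, 5.05, 4.26, 4.18 and 3.96 on arrays 20 to 24. Wild-type sildenafil lungs read 4.38, 4.02, 3.95 and 4.57, and wild-type vehicle lungs ran between 3.63 and 4.89 with a median of 4.38. Array 9 thus stood alone, array 10 was the next highest, and the other groups overlapped each other throughout. Outside array 9 this probe set lay not far above the background probe sets, whose array medians ran from 2.56 to 3.28.

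**Figure D1:**
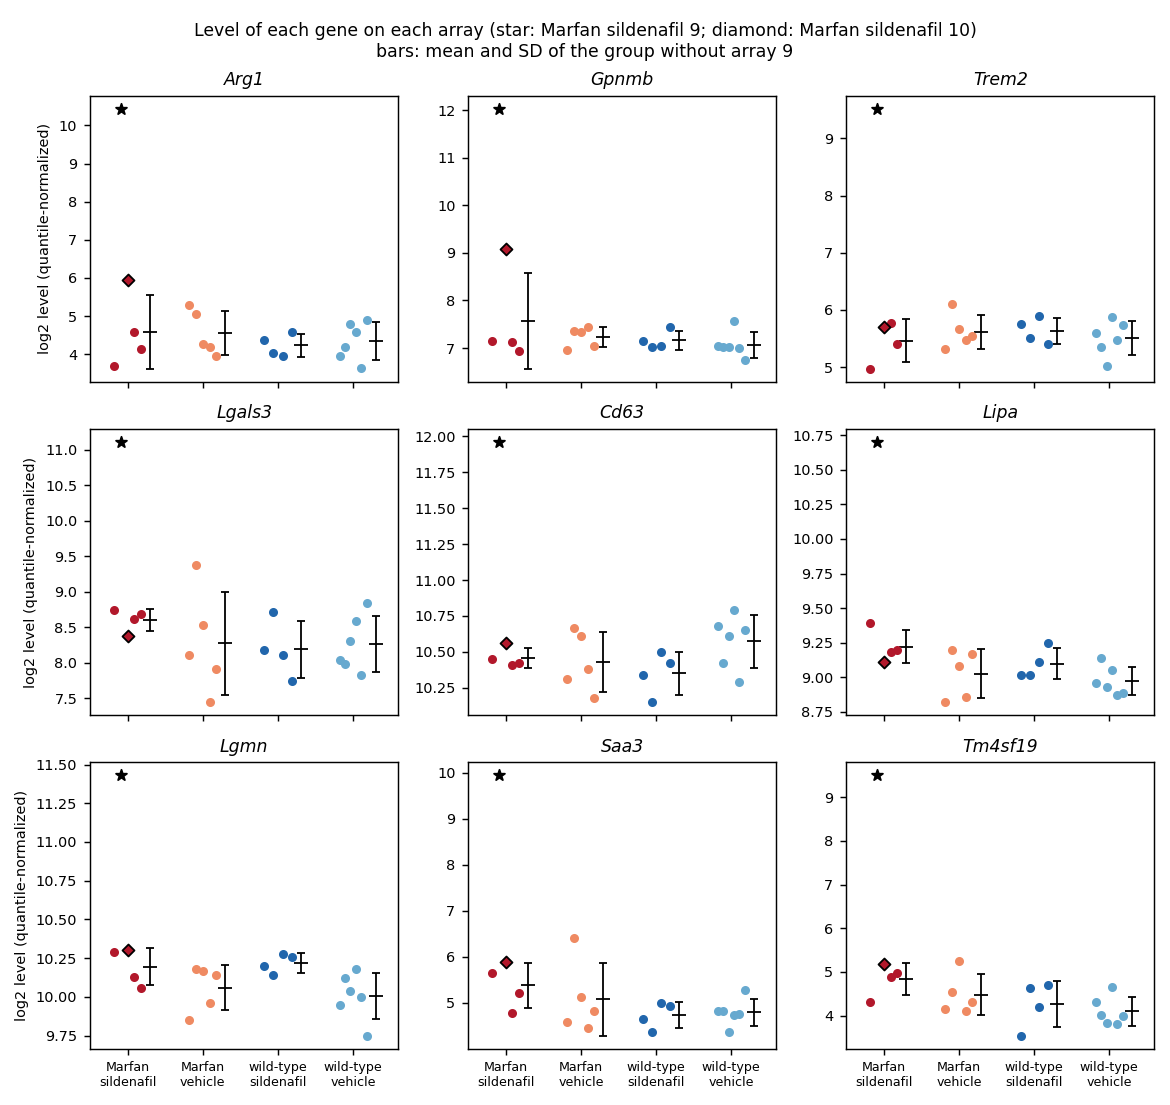
Level of each of the 9 genes on each array, in log2 units after quantile normalization, with a separate vertical scale for each gene. Points are arrays by group, the star is Marfan sildenafil 9, the diamond is Marfan sildenafil 10, and the bars give the mean and SD of each group without array 9. The star is the highest point in all 9 panels, and the diamond is the next highest for Arg1 (5.94), Gpnmb (9.07) and Lgmn (10.30).

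Gpnmb was at 12.03 on Marfan sildenafil 9, against a median of 7.05 on the other arrays, 31.6-fold higher. It read 7.15, 9.07, 7.12 and 6.93 on Marfan sildenafil arrays 8, 10, 11 and 12, and 6.95, 7.36, 7.33, 7.44 and 7.05 on the Marfan vehicle arrays. It read 7.14, 7.02, 7.04 and 7.45 in wild-type sildenafil lungs, and 6.75 to 7.57 (median 7.02) in wild-type vehicle lungs. Apart from arrays 9 and 10, every array lay between 6.75 and 7.57, a narrow range with 2 arrays far outside it.

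Saa3 was at 9.94 on Marfan sildenafil 9, against a median of 4.82 elsewhere, 34.7-fold higher. It read 5.65, 5.88, 4.79 and 5.21 on the other Marfan sildenafil arrays (8, 10, 11 and 12), and 4.59, 6.42, 5.13, 4.45 and 4.82 in Marfan vehicle lungs. It read 4.66, 4.38, 4.99 and 4.94 in wild-type sildenafil lungs, and 4.37 to 5.29 (median 4.79) in wild-type vehicle lungs. Marfan vehicle 21 was the highest of the 19, then Marfan sildenafil 10 and 8, while the remaining arrays of both genotypes overlapped.

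Tm4sf19 was at 9.50 on Marfan sildenafil 9, against a median of 4.32 elsewhere, 36.4-fold higher. The other Marfan sildenafil arrays read 4.32, 5.18, 4.89 and 4.98, the Marfan vehicle arrays 4.16, 4.53, 5.26, 4.11 and 4.30, and the wild-type sildenafil arrays 3.54, 4.62, 4.20 and 4.70. Wild-type vehicle arrays ran from 3.80 to 4.65 with a median of 4.00. Of the 19 arrays, the top 4 (22, 10, 12 and 11) were all from Marfan lungs, 3 of them treated with sildenafil. That order was seen only after the values. As with Arg1, this probe set lay not far above the background array medians of 2.56 to 3.28, which limits what small differences can show.

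Trem2 was at 9.52 on Marfan sildenafil 9, against a median of 5.54 on the others, 15.8-fold higher. It read 4.97, 5.71, 5.78 and 5.40 on the other Marfan sildenafil arrays, 5.32, 6.10, 5.67, 5.48 and 5.54 in Marfan vehicle lungs, and 5.75, 5.51, 5.90 and 5.40 in wild-type sildenafil lungs. Wild-type vehicle lungs spanned 5.02 to 5.88 (median 5.53). Unlike Gpnmb and Arg1, Trem2 on array 10 lay inside the range of the others, at rank 7 of 19, and its highest array was Marfan vehicle 21.

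The galectin gene Lgals3 was at 11.11 on Marfan sildenafil 9, against a median of 8.31 elsewhere, 6.92-fold higher. It read 8.74, 8.38, 8.61 and 8.68 on the other Marfan sildenafil arrays, and 8.10, 9.37, 8.53, 7.44 and 7.91 in Marfan vehicle lungs. It read 8.18, 8.72, 8.10 and 7.74 in wild-type sildenafil lungs, and 7.83 to 8.84 (median 8.17) in wild-type vehicle lungs. The Marfan vehicle group had both the highest (21) and the lowest (23) of the 19 readings, and its SD of 0.73 (n = 5) was above the 0.16 (n = 4) of the Marfan sildenafil arrays without array 9.

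The 3 lysosomal genes were bright on every array and had the smallest differences. Lipa was at 10.70 on Marfan sildenafil 9 and between 8.82 and 9.39 on the others, 3.07-fold above their median. Cd63 was at 11.96 and elsewhere between 10.15 and 10.79, 2.90-fold above the median. Lgmn was at 11.43 and elsewhere between 9.75 and 10.30, 2.46-fold above the median, the smallest difference of the 9 genes (1.30 log2 units, rank 443 of all genes). For these 3 genes the 19 arrays lay within 0.63 log2 units, less than the gap from the highest of them to array 9, which was 1.13 or more.

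On array 9 the difference was over 2 units for 6 of the 9 genes and for 0.979% of all genes, and over 1 unit for 9 of 9 and for 3.64%. All 9 were highest on array 9, as were 12.4% of all genes. Since that array chose the genes, nothing is read from these counts. With the deposited values in place of the quantile-normalized ones, array 9 was likewise the highest of 20 for all 9.

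**Figure D2:**
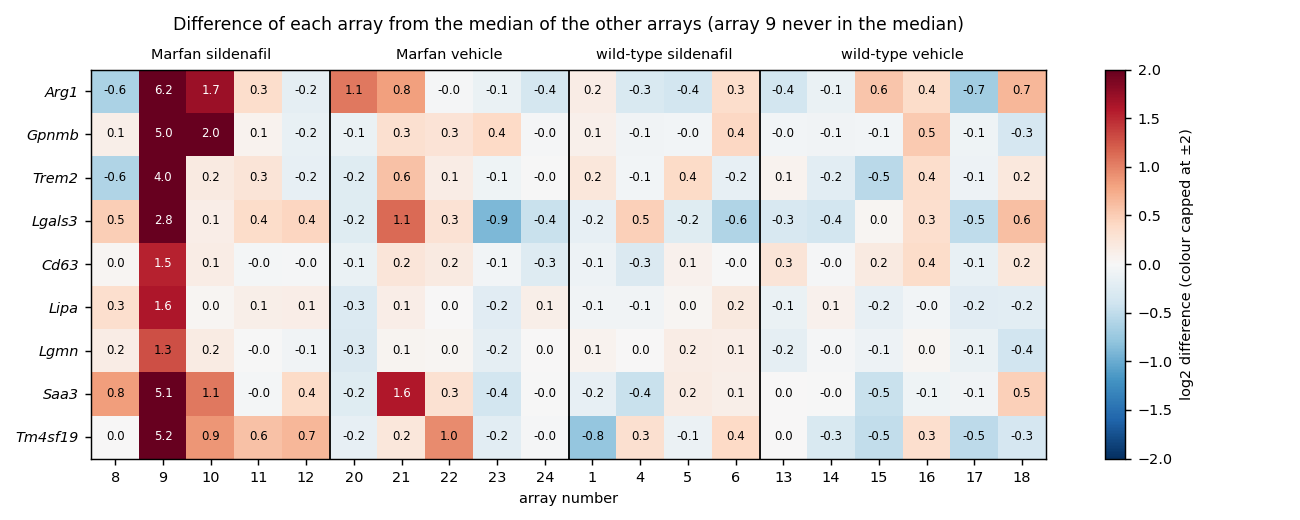
Difference of each array (columns, grouped by genotype and treatment) from the median of the other arrays for each gene (rows), in log2 units. Array 9 is never part of the median, and the colours stop at 2 units in either direction. All 9 genes are positive on Marfan sildenafil 9, on Marfan sildenafil 10 and on Marfan vehicle 21.

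Other arrays showed parts of the same set, and the arrays and the non-member genes named on them were picked after their values were seen. On Marfan sildenafil 10 all 9 genes lay above the median of the others, where 50.4% of all genes did, and 3 lay over 1 unit above it, where 0.22% of all genes did. These were Gpnmb (2.02 higher, the second largest difference of any gene on that array), Arg1 (1.72, rank 4) and Saa3 (1.06, rank 29). Tm4sf19 was 0.88 above the median there, and the other 5 were 0.05 to 0.18 above it. Of the 9, 3 (Arg1, Gpnmb and Lgmn) had their highest reading of the 19 arrays on array 10, as did 3.06% of all genes. Array 10 thus lay 0.88 or more above the median for Gpnmb, Arg1, Saa3 and Tm4sf19, and 0.18 or less above it for the other 5.

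On Marfan vehicle 21 all 9 genes were again above the median of the others, where 48% of all genes were, and 2 were over 1 unit above it, where 0.477% were. Saa3 was 1.60 and Lgals3 1.13 units higher there, Arg1 0.82 and Trem2 0.58. Gpnmb was 0.31 and Tm4sf19 0.22 higher, and the 3 lysosomal genes were 0.05 to 0.25 higher. Its 3 highest readings of the 19 arrays were Trem2, Lgals3 and Saa3, where 6.14% of all genes had theirs. By its title this sample was given vehicle. At the other end, 0 of 9 genes were above the median on wild-type vehicle 17, and 1 of 9 on each of wild-type vehicle 14 and Marfan vehicle 20 and 23.

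Genes of the same themes that are not among the 9 were listed from general knowledge of these cells, but with earlier results of these data known. Their values on array 9 are therefore a description, and some genes stand in more than 1 list. Of all genes, 3.64% were over 1 unit above the median of the other arrays on array 9. On Marfan sildenafil 9, the lipid-laden macrophage list had a median difference of 1.33 log2 units, and 17 of its 26 measured genes were over 1 unit above the other arrays. The largest were Mmp12, the macrophage elastase (12.92 on array 9 against a median of 7.09 on the others), Ctsk, a collagen-degrading cathepsin (11.58 against 7.30), and the scavenger receptors for oxidized lipoprotein Olr1 (10.02 against 7.16) and Msr1 (8.05 against 5.36). The lysosome list had a median of 0.76, with 11 of 27 genes over 1 unit. Its largest were Gla, an alpha-galactosidase (2.60 higher), Atp6v0d2, a proton pump subunit (2.57), Ctsz (1.79) and Psap, which gives rise to the saposins (1.61).

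The alternative activation list had a median difference of 1.16 on array 9, with 13 of 23 genes over 1 unit. Its largest were Retnla (3.03 higher), Igf1 (2.62), the chitinase-like Chil4 (2.44) and the eosinophil chemokine Ccl24 (2.38). Arginine and polyamine genes had a median of 0.49, with 3 of 14 over 1 unit: Slc7a2, an arginine transporter (2.55), Nos2, the inducible nitric oxide synthase that competes with Arg1 for arginine (1.53), and the other arginase Arg2 (1.33). In that list 1 gene was over 1 unit lower. The Trem2 signalling list had a median of 0.53, with 2 of 12 over 1 unit, Cd33 (1.80) and the adaptor Tyrobp (1.01). Among its lower genes were Treml4 (-0.99) and Treml2 (-0.80). Of the 12, 6 lay above their highest reading on any other array and 2 below their lowest. The acute phase list had a median of 0.49 with 8 of 17 over 1 unit, led by the fibrinogen chains Fgg (5.13) and Fga (3.92), Orm1 (3.50) and Itih4 (3.04). Galectins (median -0.08) and tetraspanins with TM4SF genes (median -0.03) had 2 of 9 and 1 of 16 genes over 1 unit. Of these 16, 1 was over 1 unit lower, 3 lay above their highest reading on any other array and 4 below their lowest.

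Array 9 differed in cell type markers too. Alveolar macrophage markers had a median difference of 1.38 (8 of 12 over 1 unit, among them Marco at 2.66 and Itgax at 2.61, with Siglecf at 0.05, Krt79 at -0.38 and Cidec at -1.57), interstitial macrophage markers 0.37 (5 of 13, led by Ms4a7 at 2.66, with 2 over 1 unit lower, Lyve1 at -1.30 and Pf4 at -1.05) and markers of giant cells and osteoclasts 0.72 (4 of 10). Monocyte markers had a median of -0.22, neutrophil markers -0.06 and dendritic cell markers -0.14. Airway basal and squamous markers had a median of 1.94 (4 of 7 over 1 unit), among them the keratins Krt5 (4.45) and Krt14 (3.70) and the basal cell factor Trp63 (2.74). Endothelial markers had a median of -1.20 and all 8 lay below their lowest reading on any other array, led by Kdr (-1.66). The mean level of the list was 9.43 on array 9 and 7.94 to 8.78 on the others for alveolar macrophages, 5.81 and 3.66 to 4.19 for basal cells, and 9.04 and 9.98 to 10.44 for endothelium. Hepatocyte markers averaged 3.33 on array 9, against 3.44 to 4.06 on the others. The part of these cell types in the levels of the 9 genes was not tested, and in whole lung fewer cells of a type and less RNA per cell cannot be told apart.

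**Figure D3:**
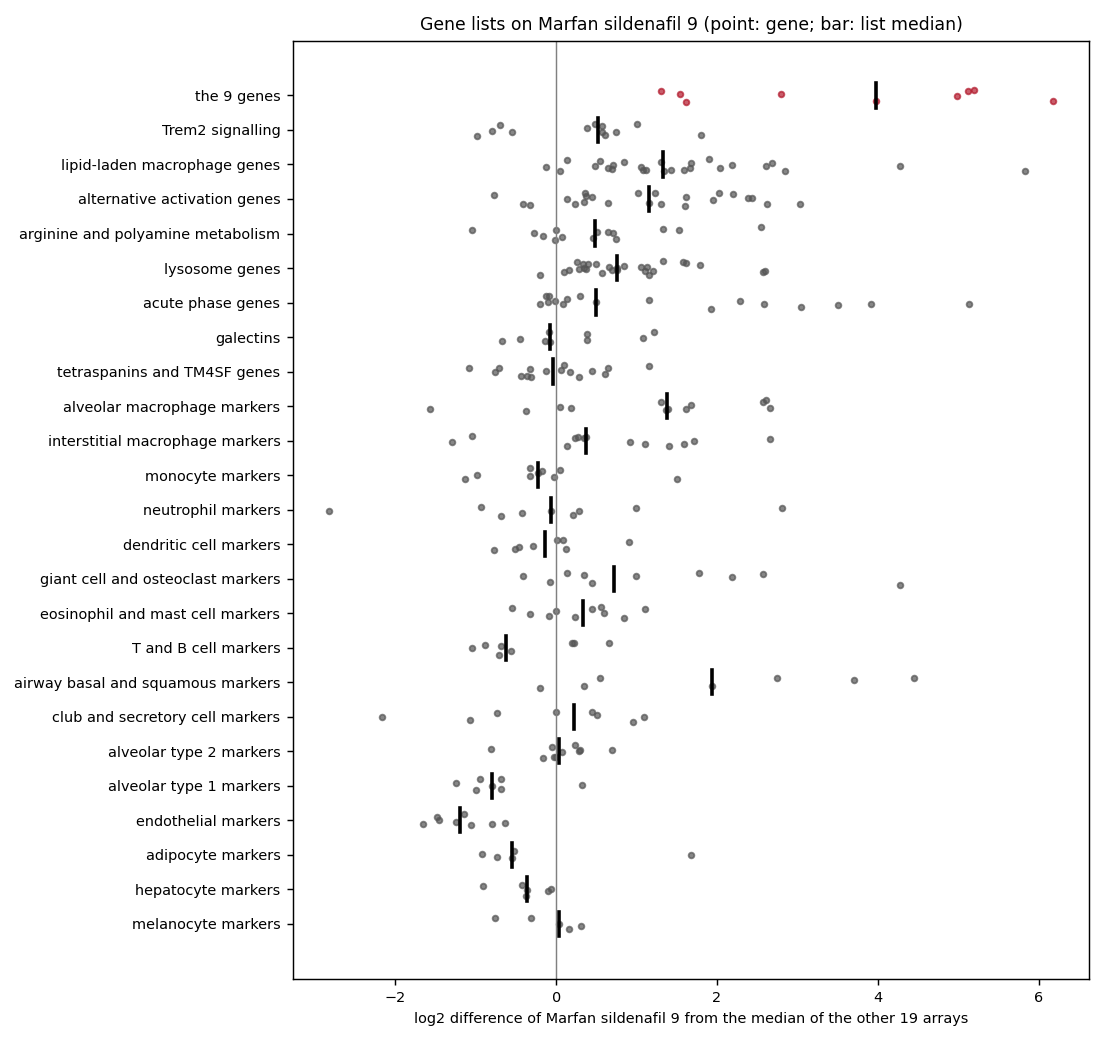
Difference of Marfan sildenafil 9 from the median of the other 19 arrays, in log2 units, for the genes of each list (points), with the list median as a bar. The 9 genes are at the top in red with a median of 3.98, lipid-laden and alternative activation genes have medians of 1.33 and 1.16, and endothelial markers lie at -1.20.

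On Marfan vehicle 21, 20 of 23 genes of the alternative activation list were above the median of the other arrays, 9 were over 1 unit above it, and 12 had their highest reading of the 19 arrays there, a share of 52.2% of the list. Of all genes, 48% were above the median there, 0.477% over 1 unit above it and 6.14% at their highest. The share at their highest was 50% for alveolar macrophage and for dendritic cell markers, and 38.5% for interstitial macrophage markers. Retnla, a secreted protein of alternatively activated macrophages, reached 11.77 on this array, close to its 11.86 on Marfan sildenafil 9, with a median of 8.83 over the 19 arrays without array 9. Chil4 reached 10.34 (10.80 on array 9), and Ccl24 reached 6.12 (7.28 on array 9). Mmp12 was at 10.44 on Marfan vehicle 21 and at 10.01 on Marfan sildenafil 10, with 12.92 on array 9 and a median of 7.09 over the 19 arrays without it. Arg1 itself was at 5.05 on Marfan vehicle 21. Lipid-laden and lysosome genes had medians of 0.18 and 0.11 above the others there. Alveolar macrophage markers were 0.44, dendritic cell markers 0.47 and monocyte markers 0.38 above the others, and endothelial markers stood at -0.21. Airway basal and squamous markers were at 0.17.

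Marfan sildenafil 10 showed another mixture. The alternative activation list had a median of 0.04 above the others there, with Retnla 1.21 higher and no gene of the list at its highest. Ctsk was at its highest of the 19 arrays (8.45), as were Fgg (5.42), Fga (4.49), Krt5 (3.97) and Krt14 (5.38), the last 4 at low levels. Alveolar macrophage markers had a median difference of 0.02 on this array. Outside the set, 185 genes lay over 2 units above the others on array 9. Of these, 143 (77.3%) were above the median on Marfan sildenafil 10 and 136 (73.5%) on Marfan vehicle 21. The shares of all genes were 50.4% and 48%, and the medians of the 185 genes were 0.24 and 0.30. On the other 17 arrays the medians of these 185 genes ran from -0.12 to 0.09. At most 62.2% of them were above the median there (Marfan sildenafil 8).

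Among the 19 arrays, genotype was first compared under vehicle. Of the 9 genes 0 passed limma's adjusted p under 0.05, where 0.0103% of all genes did (2 genes, Aebp1 and Gpc3, named because they were the ones called). The 9 differences had a median of 0.12 log2 units, with 8 positive (9 with the deposited values and 5 with median centring), where the median over all genes was -0.005 and 48.8% were positive. Tm4sf19 had the largest, 4.47 ± 0.47 (SD, n = 5) in Marfan vehicle and 4.10 ± 0.33 (n = 6) in wild-type vehicle lungs, a difference of 0.37 ± 0.23 (SE, 95% interval -0.10 to 0.84, limma adjusted p = 0.699). Saa3 averaged 5.08 ± 0.79 and 4.80 ± 0.29, a difference of 0.28 that became -0.05 without Marfan vehicle 21 and 0.44 without Marfan vehicle 23.

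Arg1 averaged 4.55 ± 0.58 in Marfan vehicle and 4.34 ± 0.50 in wild-type vehicle lungs (difference 0.21, 95% interval -0.42 to 0.84), and Gpnmb 7.23 ± 0.21 and 7.07 ± 0.27 (0.16, -0.33 to 0.65). For the lysosomal genes the intervals were narrow: Lipa differed by 0.06 (-0.13 to 0.24), Lgmn by 0.05 (-0.12 to 0.23) and Cd63 by -0.14 (-0.34 to 0.05). Trem2 differed by 0.12 (-0.25 to 0.48) and Lgals3 by 0.01 (-0.46 to 0.48). On the quantile-normalized values the intervals of Lipa and Lgmn hold no difference larger than 0.24 log2 units in either direction, while over the other settings their differences ran from -0.06 to 0.32 (Lipa) and from -0.09 to 0.29 (Lgmn). At an unadjusted p under 0.05 there were 0 of the 9 genes, where 7.81% of all genes were. The 2 groups did not overlap for 0 of the 9 genes and for 0.528% of all genes.

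The wider themes gave the same counts of calls, 0 in every list. Alternative activation genes were higher in Marfan vehicle than in wild-type vehicle lungs in 21 of 23 cases with a median of 0.16, and the median became -0.02 without Marfan vehicle 21 and 0.04 with median centring. The smallest p among them was that of the fibronectin gene Fn1 (0.62 ± 0.14 (SE), limma adjusted p = 0.273). Giant cell and osteoclast markers were higher in 10 of 10 cases with a median of 0.14, which was 0.13 without Marfan vehicle 21, 0.06 with median centring and 0.44 with the deposited values. Lysosome genes were higher in 17 of 27, with a median of 0.06 that became 0.01 without Marfan vehicle 21 and -0.09 with median centring. Of these, Psap stood at 0.34 ± 0.09 (SE, limma adjusted p = 0.391). Lipid-laden macrophage genes were higher in 16 of 26, with a median of 0.07 that became -0.004 without Marfan vehicle 21 and -0.05 with median centring.

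**Figure D4:**
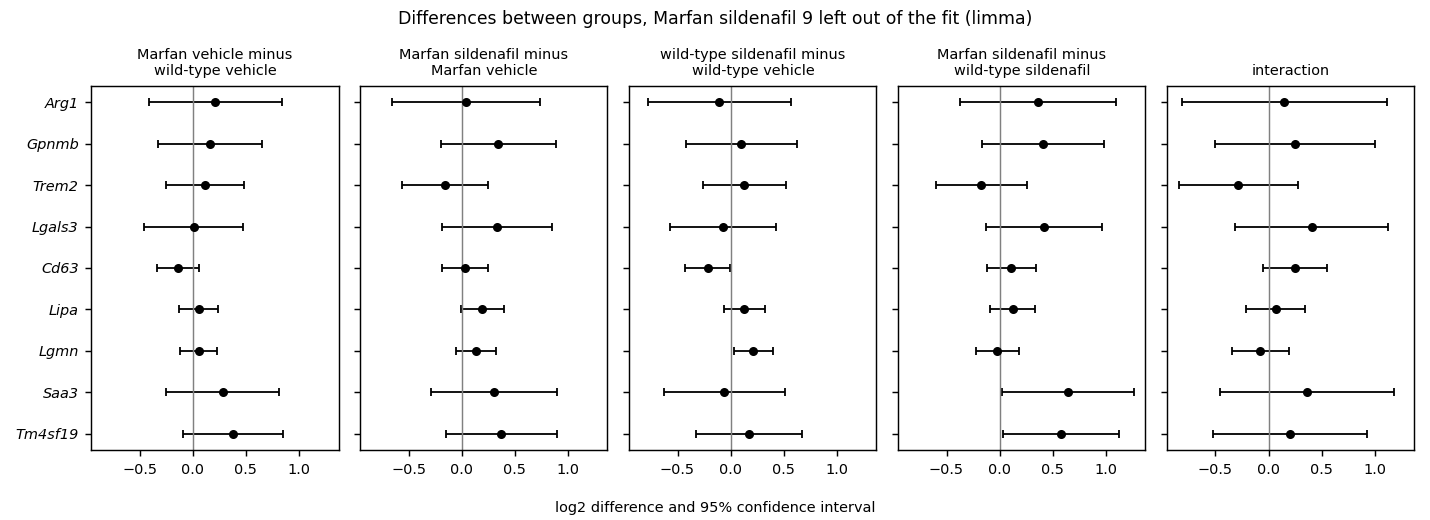
Differences in log2 units (points) with 95% confidence intervals (bars) from limma for the 9 genes in 4 group comparisons and in the interaction, with Marfan sildenafil 9 left out. A positive value is higher in the group named first, and the interaction is the sildenafil effect in Marfan minus that in wild-type lungs. Intervals that leave out 0 are those of Cd63 and Lgmn under sildenafil in wild-type lungs and of Saa3 and Tm4sf19 in Marfan against wild-type lungs under sildenafil, before adjustment.

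In Marfan lungs, sildenafil was set against vehicle. With array 9 left out, 0 of the 9 genes passed, where 0% of all genes did, and 0 of 9 had an unadjusted p under 0.05, where 6.87% of all genes did. The groups did not overlap for 0 of the 9 and for 2% of all genes. The median difference was 0.19 with 8 of 9 positive (all genes -0.001 and 49.8%). Lipa averaged 9.22 ± 0.12 (SD, n = 4) in sildenafil-treated and 9.03 ± 0.18 (n = 5) in vehicle-treated Marfan lungs, a difference of 0.19 ± 0.10 (SE, 95% interval -0.01 to 0.39, limma adjusted p = 0.744). Tm4sf19 averaged 4.84 ± 0.37 and 4.47 ± 0.47 (0.37, -0.15 to 0.89), and Lgals3 8.60 ± 0.16 and 8.27 ± 0.73 (0.33, -0.19 to 0.85).

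Gpnmb averaged 7.57 ± 1.00 in sildenafil-treated and 7.23 ± 0.21 in vehicle-treated Marfan lungs. Its difference of 0.34 rested on Marfan sildenafil 10 and was -0.16 without it. Arg1 averaged 4.59 ± 0.97 and 4.55 ± 0.58, a difference of 0.04 that was -0.41 without array 10 and 0.34 without array 8. With array 9 in the fit the differences were 1.21 for Arg1, 1.24 for Gpnmb and 0.65 for Trem2, against -0.16 for Trem2 without that array. These values with array 9 are a description, since that array chose the genes. When each of the 19 arrays was left out in turn, the sign turned for Arg1 with 4 of them, array 10 among these. It turned for Cd63 with 2 of them and for Gpnmb only without array 10. For Trem2 it turned without array 8 (0.005), and with array 9 in the fit.

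With array 9 left out, the alternative activation list, by contrast, was lower under sildenafil than under vehicle in Marfan lungs in 19 of 23 genes. Its median was -0.15 with 0 calls, -0.04 without Marfan vehicle 21 and -0.02 with the deposited values. The chemokine gene Ccl17 had its smallest p (-0.82 ± 0.35 (SE), limma adjusted p = 0.679). Alveolar macrophage markers were lower in 11 of 12, with a median of -0.13, -0.05 without Marfan vehicle 21 and -0.01 with the deposited values. Both directions depended on leaving out array 9. The mean level of the alternative activation list under sildenafil was 7.29 without array 9 and 7.51 with it, against 7.43 in Marfan vehicle lungs. For alveolar macrophage markers these levels were 8.22, 8.47 and 8.38. Lipid-laden macrophage genes had a median of 0.05 and lysosome genes of -0.01, near that of all genes.

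Sildenafil in wild-type lungs gave 0 calls among the 9 genes, where 0% of all genes passed. At an unadjusted p under 0.05 there were 2 of 9, where 11.1% of all genes were, and groups that did not overlap for 0 of 9, against 2.72% of all genes. Lgmn averaged 10.22 ± 0.07 (SD, n = 4) in wild-type sildenafil and 10.01 ± 0.15 (n = 6) in wild-type vehicle lungs, a difference of 0.21 ± 0.09 (SE, limma adjusted p = 0.375). Cd63 averaged 10.35 ± 0.15 and 10.57 ± 0.18, a difference of -0.22 ± 0.10 (limma adjusted p = 0.426). The other 7 differences lay between -0.11 and 0.17, and the median of the 9 was 0.10 with 5 positive (9 with the deposited values and 4 with median centring). In the deposited values the median of all genes was 0.28 higher in wild-type sildenafil than in wild-type vehicle lungs, and 5 of the 9 genes lay above that median, as many as after normalization.

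Between Marfan and wild-type lungs under sildenafil, 0 of the 9 genes passed, as did 0% of all genes. Saa3 averaged 5.38 ± 0.48 (SD, n = 4) in Marfan sildenafil lungs without array 9 and 4.74 ± 0.28 (n = 4) in wild-type sildenafil lungs, a difference of 0.64 ± 0.30 (SE, 95% interval 0.02 to 1.26, limma adjusted p = 1). Tm4sf19 averaged 4.84 ± 0.37 and 4.27 ± 0.53, a difference of 0.58 ± 0.27 (0.03 to 1.12, limma adjusted p = 1). These were the 2 of 9 with an unadjusted p under 0.05, where 3.22% of all genes were, and the groups did not overlap for 0 of 9 and for 2.66% of all genes. Gpnmb differed by 0.41 and Arg1 by 0.36, and without Marfan sildenafil 10 these values were -0.09 and -0.10.

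Lgals3 differed by 0.42 (95% interval -0.13 to 0.96) between Marfan sildenafil and wild-type sildenafil lungs, and Trem2 by -0.17 (-0.60 to 0.25). The lysosomal genes differed by 0.12 (Lipa), 0.11 (Cd63) and -0.03 (Lgmn). The difference between the sildenafil effects in Marfan and in wild-type lungs, the interaction, gave 0 calls among the 9 genes, where 0% of all genes passed, and 0 of 9 at an unadjusted p under 0.05, where 4.33% of all genes were. Its values ran from -0.29 (Trem2, 95% interval -0.85 to 0.27) to 0.41 (Lgals3, -0.31 to 1.13). For the wider Trem2 signalling list the interaction had a median of -0.29, with 10 of 12 genes negative and 0 called. Over all genes 49.8% were positive. Against the same wild-type vehicle arrays, 8 of the 12 were higher in Marfan vehicle and 9 of the 12 in wild-type sildenafil lungs. The smallest p of the list in the interaction was that of Plcg2, a phospholipase downstream of the receptor (-0.56 ± 0.19 (SE), limma adjusted p = 0.995). In the separate comparisons Plcg2 stood at 0.35 ± 0.12 for Marfan against wild-type under vehicle and at 0.34 ± 0.13 for sildenafil against vehicle in wild-type lungs. The comparisons share groups, so their values for the 9 genes and for the lists are not independent of each other.

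The 9 genes were then compared with each other over the 19 arrays, with the group means taken away. Of 36 pairs 32 had a positive Pearson r, with a median of 0.30 and a range of -0.28 to 0.69. In a permutation test that shuffled arrays within groups, 0 pairs passed an adjusted p under 0.05. The share of positive pairs among other genes was not computed, and these pairs reuse the same 9 genes and are not independent. The closest were the lysosomal Lipa and Lgmn (Pearson r = 0.69, permutation p = 0.00557, Spearman rho = 0.68, p = 0.00838, adjusted p = 0.176 for r and 0.151 for rho over 36 pairs). Without the 2 arrays farthest from the median in Lipa, r was 0.64. Without Marfan sildenafil 10 it was 0.80 (adjusted p = 0.0248, permutation), and with the deposited values 0.91 (adjusted p = 0.00072, permutation). Both genes also went with the brightness of the array (r of 0.41 for Lipa and 0.39 for Lgmn over the 19 arrays), and with brightness taken away r between them was 0.63 (adjusted p = 0.149, permutation).

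Another 4 pairs had an unadjusted permutation p under 0.05 for r. Cd63 and Saa3 had r = 0.57 (permutation p = 0.0195, rho = 0.62, adjusted p = 0.176), Trem2 and Cd63 r = 0.49 (permutation p = 0.0459, rho = 0.52, adjusted p = 0.331), and Gpnmb and Lgmn r = 0.48 (permutation p = 0.0148, rho = 0.54, adjusted p = 0.176). Gpnmb and Cd63 had r = 0.37 (permutation p = 0.0136, rho = 0.50, adjusted p = 0.176). Without the 2 farthest arrays these 4 values were 0.52, 0.44, 0.47 and 0.43. Arg1 and Gpnmb, both high on array 10, had r = 0.59 (permutation p = 0.131, rho = 0.35, adjusted p = 0.343). Without the 2 farthest arrays, Marfan sildenafil 10 and Marfan vehicle 20, r was 0.37, and without array 10 alone it was 0 (permutation p = 0.998), so this value rested on array 10. Lgals3 and Saa3, both high on Marfan vehicle 21, had r = 0.56 (permutation p = 0.0811, rho = 0.26, adjusted p = 0.341), and 0.02 without Marfan vehicle 21 and 23, so this value rested on those arrays.

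**Figure D5:**
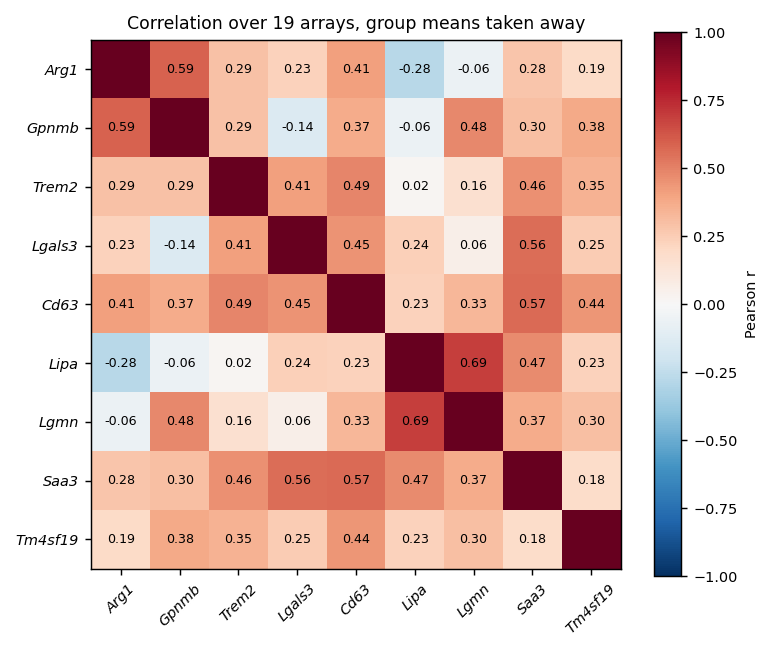
Pearson r between each pair of the 9 genes over the 19 arrays other than Marfan sildenafil 9, after the group means were taken away, on a scale from -1 to 1. Lipa and Lgmn have the highest value (0.69), and Arg1 and Lipa the lowest (-0.28).

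The genes outside the set whose residuals followed the mean of the 9 most closely over the 19 arrays were Cisd3 and S100a1 (Pearson r of 0.83 each), Snx20 and Psmb6 (0.82 each), H1f3, Isca2 and Rgs19 (0.81 each) and Id3 (0.80), of 9747 genes above the median level that were ranked. On Marfan sildenafil 9 they differed from the other arrays by -1.42 (Id3) to 0.82 (S100a1), so that 0 of these 8 were over 1 unit higher there. The highest values of the 9747 are by their choice high, and these r values have no test.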

How the data were processed

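RNA of whole mouse lung was isolated with QIAzol and RNeasy columns, had RNA integrity numbers above 8.5, and 700 pg went into the GeneChip Pico kit, as the labels' protocols state. The log2 values were made by the authors with RMA in Affymetrix Expression Console, per the submitters' processing notes. Columns of 4 arrays, titled as failing quality control, held no values and were left out. Each gene was read by the probe set with the highest mean among those annotated to 1 symbol (19572 of 22206 transcript probe sets, 19505 genes). Arrays were quantile-normalized again, since array medians of the deposited values ran from 5.32 to 6.45.

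The 4 groups of 19 arrays, without Marfan sildenafil 9, were fitted together in limma 3.58.1 (R 4.3.3; lmFit and eBayes with a variance trend), with Benjamini-Hochberg adjustment over all genes and a threshold of 0.05. Correlations used residuals from group means, 100000 permutations within groups and adjustment over 36 pairs. The code was tested on simulated data. Alternatives were the deposited values, median centring, all 20 arrays, only the groups compared, no variance trend, array weights, covariates for array brightness and for the mean of Y-linked genes, robust variances, quantiles over 19 arrays, the mean of all probe sets of a gene, a filter on low values and leaving out each array. Arrays give no read depth, so their number limits the precision. Genes named are the 9 members, in each list up to 4 with the largest difference on array 9 and up to 2 with the smallest p per comparison, up to 6 other genes with the largest difference on array 9, and 8 genes most like the mean of the set. Cidec, Krt79, Siglecf, Lyve1 and Pf4 were added after their values were seen where the rule had not named them. The members and lists were chosen with earlier results of these data known.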

Additional observations from a re-analysis of the deposited data

Results flagged for a closer look

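Single readings were set against their group by Dixon's gap test in the groups of 4 to 6 arrays, which flags about 1 in 20 groups by chance. With array 9 in its group, its reading was flagged for 7 of the 9 genes: Trem2 (9.52), Lgals3 (11.11), Cd63 (11.96), Lipa (10.70), Lgmn (11.43), Saa3 (9.94) and Tm4sf19 (9.50). Arg1 and Gpnmb were not flagged there, since array 10 was high as well and narrowed the gap. These flags repeat the choice of the genes and are no test of it. Of the other 36 combinations of gene and group, 2 were flagged, both for Gpnmb. On Marfan sildenafil 10 Gpnmb read 9.07, with the nearest other array of that group at 7.15. On wild-type vehicle 16 it read 7.57, with the nearest at 7.04.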

How the results depend on the processing

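No paired analysis was possible because the groups share no replicate numbers. Over all settings 1366 member differences were recomputed, 1312 kept their sign and 0 passed the threshold, with a lowest limma adjusted p of 0.0778 (Lgmn, wild-type sildenafil minus wild-type vehicle, deposited values). The causes of the changes below were not tested.

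Of all genes, 2 were called between Marfan vehicle and wild-type vehicle, 244 with deposited values, 0 with median centring, all 20 arrays, only the groups compared, no variance trend, or a brightness or Y-linked covariate, and 0 to 8 when an array was left out. With deposited values 1447 genes (0 in the main setting) were called for sildenafil in wild-type lungs, and with only the groups compared 1 gene (0) for genotype under sildenafil. Deposited values moved the median of all genes by 0.25 (Marfan vehicle minus wild-type vehicle), 0.11 (Marfan sildenafil minus Marfan vehicle), 0.28 (wild-type sildenafil minus vehicle) and 0.07 (Marfan minus wild-type under sildenafil). Median centring moved it by -0.13, 0, -0.13 and -0.01. Under all 3 scalings 8, 8, 5 and 7 of the 9 genes lay above that median.

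These differences took the opposite sign. With deposited values: Cd63 0.068 in Marfan vehicle minus wild-type vehicle, Arg1 0.137, Lgals3 0.259, Cd63 0.017 and Saa3 0.268 in wild-type sildenafil minus vehicle, Lgmn 0.019 between genotypes under sildenafil, and Gpnmb -0.003 and Lipa -0.141 in the interaction. With median centring: Lgals3 -0.077, Lipa -0.062 and Lgmn -0.089 between genotypes under vehicle, Tm4sf19 -0.016 for sildenafil in wild-type lungs, and Lgmn 0.025 in the interaction. With all 20 arrays: Trem2 0.652 for sildenafil in Marfan lungs, Trem2 0.639 and Lgmn 0.223 between genotypes under sildenafil, and Trem2 0.524 and Lgmn 0.169 in the interaction. With array weights Lgals3 was -0.068, and with the Y-linked covariate -0.003, between genotypes under vehicle. With the brightness covariate: Lipa -0.059 and Lgmn -0.053 between genotypes under vehicle, Arg1 0.374, Lgals3 0.064 and Saa3 0.258 for sildenafil in wild-type lungs, and Arg1 -0.198 and Lgmn 0.002 in the interaction.

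Leaving out each array gave ranges that include 0 as follows. Between genotypes under vehicle they were -0.005 to 0.191 (Trem2), -0.268 to 0.215 (Lgals3) and -0.054 to 0.439 (Saa3). For sildenafil in Marfan lungs they were -0.412 to 0.338 (Arg1), -0.156 to 0.556 (Gpnmb), -0.265 to 0.005 (Trem2) and -0.031 to 0.093 (Cd63). In wild-type lungs they were -0.247 to 0.005 (Arg1), -0.254 to 0.072 (Lgals3) and -0.145 to 0.061 (Saa3). Between genotypes under sildenafil they were -0.095 to 0.655 (Arg1), -0.094 to 0.618 (Gpnmb) and -0.061 to 0.020 (Lgmn), and in the interaction -0.306 to 0.443 (Arg1), -0.254 to 0.459 (Gpnmb) and -0.039 to 0.399 (Tm4sf19).

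On array 9, median centring gave differences of 1.74 (Cd63), 1.85 (Lipa) and 1.64 (Lgmn), and the other Marfan sildenafil arrays alone as the base gave 4.51 (Saa3) and 4.57 (Tm4sf19). Pairs of genes passing the adjusted p numbered 0, and 3 with deposited values, 1 with median centring and, as settings added after the data were seen, 1 without Marfan sildenafil 10. Of 3830 list medians 151 moved by more than the SD of the list, 61 of them with deposited values and 28 with all 20 arrays. Arg1, Trem2, Saa3 and Tm4sf19 lay in the dimmer 50% of genes, which limits what small differences in them can show.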

Other observations

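Genes outside the macrophage themes also stood far above the other arrays on Marfan sildenafil 9, as a description of that array. Among the largest were Fgg (5.13 log2 units), Slc26a4, the anion exchanger pendrin (5.07), Awat1, a wax ester synthase (4.96) and the goblet cell protein Clca1 (4.76), next to the macrophage elastase Mmp12 (5.83). Alveolar type 1 markers had a median difference of -0.80 there, with 6 of 7 below their lowest reading on any other array, and T and B cell markers -0.62.

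The comparisons without array 9 called no gene of the lysosome or arginine lists. Under sildenafil in wild-type lungs, the lysosomal peptidase Tpp1 stood at 0.43 ± 0.12 (SE, limma adjusted p = 0.169) and Arg2 at -0.53 ± 0.16 (limma adjusted p = 0.219). In Marfan lungs under sildenafil, the hexosaminidase subunit Hexa stood at -0.42 ± 0.11 (limma adjusted p = 0.576).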
